A study of Rattus norvegicus with 8 samples.

Results

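Interferon-stimulated genes are the genes that a cell switches on when it senses interferon, and 50 of them, chosen by symbol, were followed in peritoneal macrophages of rats that received carbon nanotubes. The list names symbols only and has no threshold on expression. Of the 50, 49 were present in the table of 23487 genes (Samd9l was not analysed here). All 49 were among the 12124 genes that passed the filter on low counts. The macrophages came from the peritoneal cavity of female Wistar rats aged 8 weeks and were collected 15 days after injection into the peritoneum and sorted on a flow cytometer. The study compared CNT-7, rigid needle-like multi-walled nanotubes that cause mesothelioma in rats, with CNT-T, tangled nanotubes that do not, given in the same amount. Each group held 4 rats, numbered 3, 5, 10 and 11 after CNT-7 and 1, 2, 12 and 13 after CNT-T. Rats without nanotubes were not analysed here, so that a difference is one between both particles and no value says whether either particle changed a gene.

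Type I interferons bind a receptor made of Ifnar1 and Ifnar2, whose kinases Jak1 and Tyk2 act on Stat2. Stat2 and Irf9 are subunits of the ISGF3 complex, which binds the interferon-stimulated response element (ISRE) in the promoters of its targets. Interferon-gamma uses another receptor and Jak2, and its targets carry the gamma-activated site (GAS). The induced proteins detect viral nucleic acids, block steps of viral growth, and in part feed back on the pathway, and macrophages make and answer interferon readily.

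The libraries held between 27195157 and 33732981 counts, so that 3 counts equalled between 0.0887 and 0.109 CPM (counts scaled to one common library total). Levels are CPM on normalised library sizes. They are compared between rats and not between genes, because gene length was not taken into account. The summed level of 9 macrophage markers ranged from 17572 to 24058 CPM in the CNT-7 rats and from 25927 to 37455 CPM in the CNT-T rats, and none of the 9 was at 0 in every rat. The groups did not overlap (p = 0.0286 in a two-sided exact permutation test, the lowest value that 4 rats against 4 allow). In bulk RNA, fewer cells of a type and less RNA per cell cannot be told apart. Across all genes tested, the least similar rats of the same group were CNT-7 rats 10 and 11, with Pearson's r of 0.971 across genes (which are not independent replicates), against 0.978 to 0.986 for the other pairs within a group. With the CNT-T rats, r was 0.960 to 0.966 for CNT-7 rat 11 and 0.942 to 0.947 for CNT-7 rat 10. For CNT-7 rats 3 and 5 it was 0.949 to 0.959, so that rats 11 and 10 were also the extremes over all genes.

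The interferon-stimulated genes differed more between the rats of the CNT-7 group than between the particles. A score, the mean over the 49 genes of log2 CPM relative to the 8-rat mean, was 0.02, -0.11, -0.82 and 0.81 in CNT-7 rats 3, 5, 10 and 11. In CNT-T rats 1, 2, 12 and 13 it was 0.07, 0.13, 0.13 and -0.24. Rat 11 was thus the highest and rat 10 the lowest of all 8 rats, and the other 6 lay between them. The group means were -0.03 ± 0.67 after CNT-7 and 0.03 ± 0.18 after CNT-T (SD, n = 4). The SD over the CNT-7 rats was 0.50 without rat 10 and 0.45 without rat 11. Without CNT-T rat 13, the SD over the CNT-T rats was 0.04.

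The same order was found gene by gene. Within the CNT-7 group, 48 of 49 genes were highest in rat 11, whereas 26.9% of all genes tested were. The exception was Ifi27, a mitochondrial protein, with 476 CPM in rat 3 and 474 CPM in rat 11. In 46 genes (93.9%, against 28.3% of all genes) rat 10 was the lowest. The other 3 were Bst2, lowest in rat 3, and Nmi and Mx2, lowest in rat 5. Both held in 45 genes (91.8%, against 13.3%). Among all 8 rats, rat 11 was the highest in 44 genes (89.8%, against 8.68%) and rat 10 the lowest in 37 (75.5%, against 17.4%). Genes vary together within a library, so these counts describe 2 rats and not 49 independent observations. The list was chosen with earlier results of these data known. The comparisons with all genes, here and below for order, spread and covariation, are therefore a description and not a test.

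**Figure D1:**
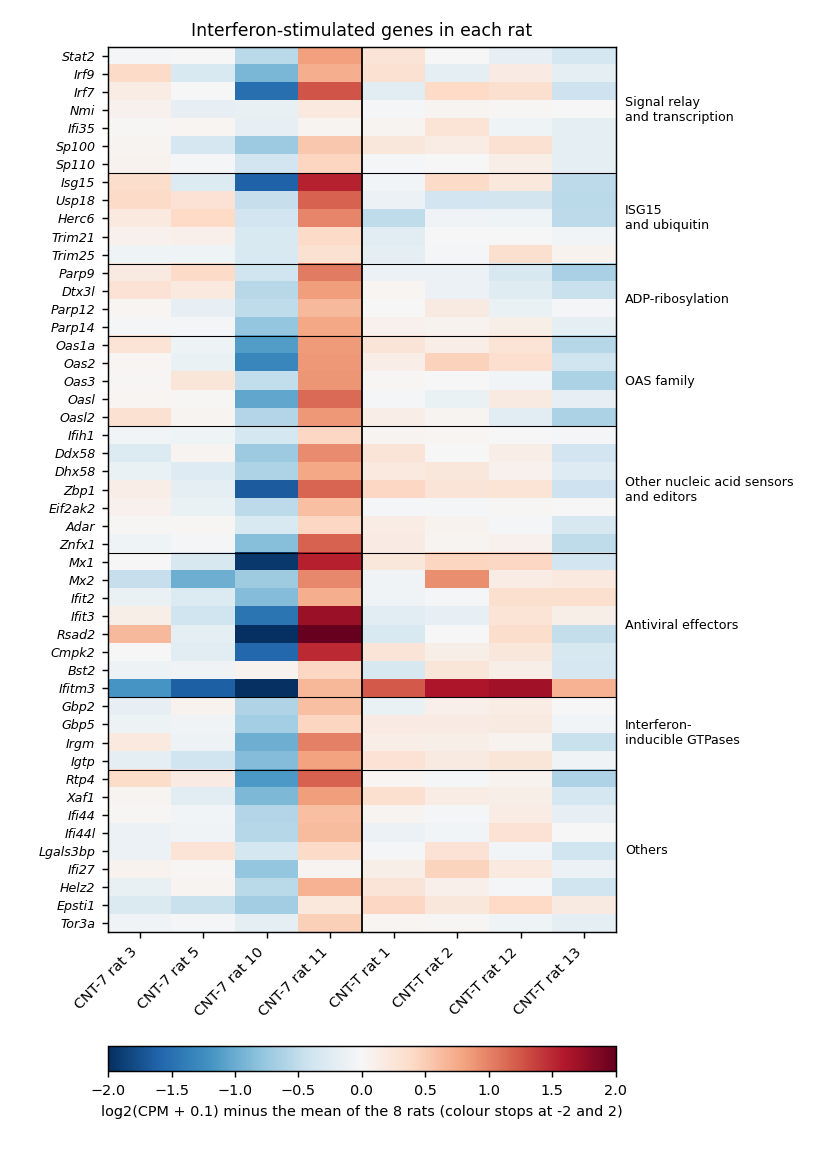
Log2 of CPM with 0.1 added, for each of the 49 interferon-stimulated genes (rows, by role) in each of the 8 rats (columns, by group), minus the mean of the gene over the 8 rats, with colours that stop at -2 and 2. CNT-7 rat 11 is high and CNT-7 rat 10 low across nearly all rows, in 45 of 49 genes as the highest and lowest of the CNT-7 rats, while the CNT-T rats differ less.

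The spread was larger after CNT-7 in 47 of 49 genes (95.9%, against 51.3% of all genes tested), with Bst2 and Ifi35 as the exceptions. The median SD of log2 CPM was 0.60 in the CNT-7 rats and 0.24 in the CNT-T rats, while over all genes tested it was 0.16 in both groups. The larger spread rested on both rats. It was found in 45 genes without CNT-7 rat 10 (43.5% of all genes) and in 43 without CNT-7 rat 11 (46.6%), with medians of 0.45 and 0.39. With both left out, the SD over rats 3 and 5 was the larger in 9 genes (18.4%, against 34.7% of all genes), and its median was 0.14. The highest CNT-7 rat exceeded the lowest by a median of 2.64-fold, from 1.16-fold for Ifi35 to 37.3-fold for Rsad2. Within CNT-T the median was 1.42-fold. At least a 2-fold span was found in 37 genes after CNT-7 (75.5%, against 15.6% of all genes) and in 1 gene, Mx2, after CNT-T (2.04%, against 12.2%). In the CNT-T group, rat 13 was the lowest in 38 genes (77.6%, against 29.6%) and the highest in 0.

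**Figure D2:**
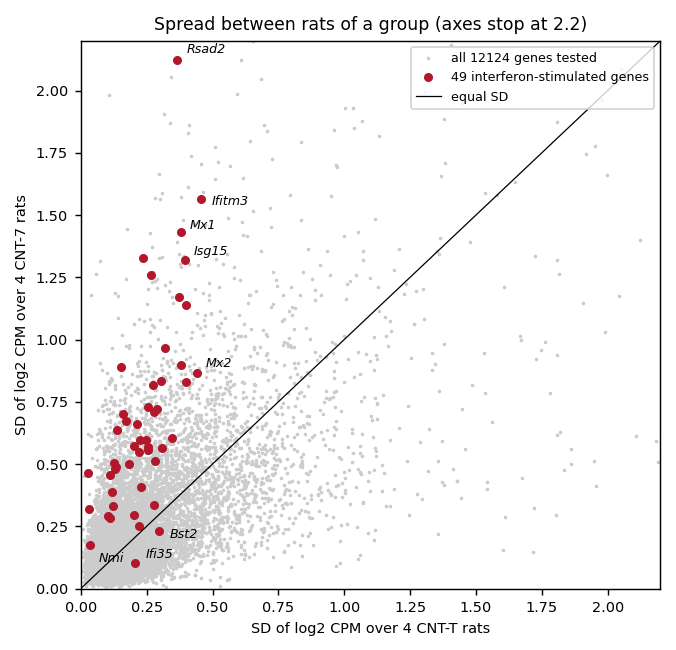
SD of log2 CPM over the 4 CNT-T rats (x axis) against the SD over the 4 CNT-7 rats (y axis) for every gene tested (grey) and the 49 interferon-stimulated genes (coloured), with both axes stopping at 2.2. The line marks equal spread, and 47 of the 49 genes lie above it.

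After the group means were removed, the interferon-stimulated genes went up and down together across the rats. The median Pearson's r over 1176 pairs of these genes was 0.90, and over pairs of all genes tested it was 0.00. The points of each r are the same 8 libraries, so that the pairs are not independent. The median was 0.80 without CNT-7 rat 11 and 0.82 without CNT-7 rat 10. With both rats left out, 6 rats gave 0.53, so that part of the covariation was also present among the others. How much of it rested on CNT-T rat 13, the lowest CNT-T rat in 38 genes, was not tested. The genes that followed the mean of the rest least were Bst2 (r = 0.51) and Ifi35 (r = 0.52), whereas Mx1, Parp14 and Ifitm3 followed it with r of 1.0 when rounded.

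Many of these genes carry the ISRE letters next to their start. RefSeq promoter windows on the GRCr8 assembly, from 250 bases before to 50 bases after the start, were matched by symbol or synonym to 39 of the 49 genes. The ISRE core (GAAANNGAAA or TTTCNNTTTC, both strands) was found for 26 of the 39 genes (66.7%), counting a gene with a core in any window. It was found in 3.92% of 33469 promoter windows, and for 3.23% of the genes tested here that had a window. The GAS core (TTCNNNGAA, the same on both strands) was found for 8 of the 39 genes (20.5%), against 8.87% of all windows and 7.13% of genes tested. A match is a description of letters and not a binding site. Of 32 ISRE cores, 25 began within the last 110 bases before the start. The 160 bases before the start are shown for 8 genes, with the ISRE and GAS cores in capitals. Irf7, Ifit3, Rsad2 and Oas1a are ISGF3 targets with wide spans between the CNT-7 rats, Ifitm3 and Epsti1 are the members called lower after CNT-7, and Irgm and Igtp show a GAS core that begins 11 bases before an ISRE core, which was found in 3 genes (Parp14 is the other).
Irf7 (chr1:205800024-205800183, minus strand): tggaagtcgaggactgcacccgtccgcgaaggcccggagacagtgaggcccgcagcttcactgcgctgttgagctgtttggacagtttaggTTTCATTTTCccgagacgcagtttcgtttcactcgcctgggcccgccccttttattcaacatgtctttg
Ifit3 (chr1:241527166-241527325, plus strand): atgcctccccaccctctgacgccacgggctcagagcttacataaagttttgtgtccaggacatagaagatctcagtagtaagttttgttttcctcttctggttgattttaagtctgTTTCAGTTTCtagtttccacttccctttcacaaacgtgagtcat
Rsad2 (chr6:48788121-48788280, minus strand): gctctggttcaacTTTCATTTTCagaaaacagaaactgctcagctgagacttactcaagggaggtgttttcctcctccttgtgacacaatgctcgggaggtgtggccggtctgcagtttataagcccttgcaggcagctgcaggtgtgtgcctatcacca
Oas1a (chr12:41330306-41330465, plus strand): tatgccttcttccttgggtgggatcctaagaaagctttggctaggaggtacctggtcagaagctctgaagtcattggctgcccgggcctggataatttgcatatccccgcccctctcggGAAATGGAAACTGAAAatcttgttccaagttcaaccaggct
Ifitm3 (chr1:205541759-205541918, minus strand): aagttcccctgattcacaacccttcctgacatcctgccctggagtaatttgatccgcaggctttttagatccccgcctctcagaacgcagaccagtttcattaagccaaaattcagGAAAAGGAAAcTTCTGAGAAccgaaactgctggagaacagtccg
Epsti1 (chr15:59693241-59693400, plus strand): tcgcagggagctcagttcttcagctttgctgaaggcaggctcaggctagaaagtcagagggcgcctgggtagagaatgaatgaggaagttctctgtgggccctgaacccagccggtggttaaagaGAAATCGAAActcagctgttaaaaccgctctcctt
Irgm (chr10:33742579-33742738, minus strand): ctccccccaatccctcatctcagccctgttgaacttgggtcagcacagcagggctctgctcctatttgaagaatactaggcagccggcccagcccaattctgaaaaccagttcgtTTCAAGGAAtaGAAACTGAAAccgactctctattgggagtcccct
Igtp (chr10:42874887-42875046, plus strand): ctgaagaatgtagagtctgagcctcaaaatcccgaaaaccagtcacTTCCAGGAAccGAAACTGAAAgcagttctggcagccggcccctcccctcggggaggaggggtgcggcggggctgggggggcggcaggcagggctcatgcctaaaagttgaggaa
The capitals of Oas1a hold 2 overlapping ISRE cores, and those of Ifitm3 an ISRE core followed by a GAS core. The files were made on another assembly, Rnor_6.0, and these coordinates belong to GRCr8 alone. The median span between the highest and the lowest CNT-7 rat was 2.31-fold in the 26 genes with a core and 2.59-fold in the 13 without. Among genes tested outside the list, rat 11 was the highest and rat 10 the lowest CNT-7 rat in 57 of 261 (21.8%) with an ISRE core and in 1094 of 8587 (12.7%) without one.

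In what follows, values are CPM in CNT-7 rats 3, 5, 10 and 11 and then in CNT-T rats 1, 2, 12 and 13, and log2 changes are the log2 fold change from CNT-T to CNT-7, with their standard error (SE). Genes are called at an adjusted p under 0.10 in edgeR's quasi-likelihood test. As the list was proposed with results of this comparison known, calls of its members are given as a description, without p-values.

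The 7 genes that relay or shape the signal were not called. Irf7, the transcription factor that amplifies interferon production, had 151, 138, 47.8 and 328 CPM after CNT-7 and 118, 181, 171 and 103 CPM after CNT-T. Its span was thus 6.86-fold after CNT-7 and 1.76-fold after CNT-T, and rats 10 and 11 lay on either side of all the others (log2 fold change 0.21, SE 0.46). Stat2, a subunit of ISGF3, had 114, 116, 79.7 and 206 CPM and 139.5, 115, 104 and 91.4 CPM (0.20, SE 0.26). Irf9, the DNA-binding subunit of ISGF3, had 104, 64.6, 42.3 and 131 CPM and 98.5, 69.6, 89.2 and 69.8 CPM (0.06, SE 0.30). The groups overlapped in all 3, and the CNT-7 rats with the highest and the lowest value were the same. Nmi and Ifi35, which bind each other, were the steadiest, with spans of 1.28-fold and 1.16-fold after CNT-7 and log2 fold changes of -0.01 and -0.03. The nuclear body proteins Sp100 and Sp110 stood at -0.17 and 0.07.

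Isg15 is a ubiquitin-like protein that is attached to other proteins. It had 29.6, 19.1, 7.44 and 67.2 CPM after CNT-7 and 22.2, 30, 26.8 and 16.0 CPM after CNT-T (log2 change 0.37, SE 0.52). Its 9.03-fold span after CNT-7 enclosed every CNT-T rat. Usp18, which removes Isg15 and restrains the receptor, had 47.9, 45, 26.6 and 83.3 CPM against 33.6, 28.0, 28.5 and 25.2 CPM (0.81, SE 0.28) and was called higher. Rats 3, 5 and 11 were above every CNT-T rat, but rat 10 was within their range. Herc6, the ligase that attaches Isg15 in rodents, was also called higher, with 61.7, 70.8, 41.5 and 106 CPM against 37.9, 51.3, 51.1 and 37.6 CPM (0.65, SE 0.25). The pattern was that of Usp18, with rat 10 again among the CNT-T values. The ubiquitin ligases Trim21 (0.15) and Trim25 (-0.08) were not called.

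Parp9 and Dtx3l form a complex that modifies proteins with ADP-ribose and ubiquitin. Parp9 had 146, 168, 97.9 and 267 CPM after CNT-7 and 119, 119, 104 and 82.4 CPM after CNT-T (log2 change 0.68, SE 0.26) and was called higher. Dtx3l, with 143, 134, 79.7 and 209 CPM against 119.9, 108, 98.8 and 86.2 CPM, was not called (0.46, SE 0.24). In both, CNT-7 rats 3, 5 and 11 exceeded every CNT-T rat, while rat 10 lay within the CNT-T range for Parp9 and below it for Dtx3l. The related enzymes Parp12 (0.05) and Parp14 (0.06) were not called.

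The 5 genes of the OAS family, whose enzymes bind double-stranded RNA and activate RNase L, or are related to them, were not called. Oas3 had 52.8, 61.2, 36.9 and 95.3 CPM after CNT-7 and 52.5, 51.4, 49.9 and 33.5 CPM after CNT-T (log2 change 0.39, SE 0.26). Oasl2 had 145, 123, 78.4 and 216 CPM against 129, 123, 102 and 75.9 CPM (0.39, SE 0.28). In both genes CNT-T rat 13 was the lowest of the 8 rats, below CNT-7 rat 10. Oas1a, Oas2 and Oasl had log2 fold changes of 0.08, -0.10 and 0.27, and their reads may be divided among similar genes of the family.

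The 7 other sensors and editors of nucleic acids were not called either. Ddx58, which encodes the RNA sensor RIG-I, had 35.6, 44.8, 26.0 and 83.5 CPM after CNT-7 and 51.4, 43.0, 47.5 and 33.0 CPM after CNT-T (log2 change 0.12, SE 0.31). Znfx1, a helicase that senses double-stranded RNA, had 60.8, 62.7, 35.8 and 146 CPM against 72.0, 66.7, 68.2 and 45.4 CPM (0.27, SE 0.36). Rat 11 stood alone at the top of both genes, whereas rats 3 and 5 lay among the CNT-T values. Ifih1 (MDA5, -0.01), Dhx58 (LGP2, -0.03), Zbp1 (0.02), Eif2ak2 (PKR, 0.08) and the RNA editor Adar (0.09) lay close to 0. Zbp1, a sensor of Z-form nucleic acids, had the widest span of the 7, 7.17-fold after CNT-7 against 1.78-fold after CNT-T.

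The 8 antiviral effectors had the widest spans, with a median of 8.85-fold after CNT-7 and 1.63-fold after CNT-T. Mx1, a dynamin-like GTPase, had 114, 90.8, 29.8 and 335 CPM after CNT-7 and 133, 154, 151 and 87.4 CPM after CNT-T (log2 change 0.11, SE 0.57). Rsad2 encodes viperin, which makes a chain-terminating nucleotide. It had 8.80, 4.82, 0.867 and 32.3 CPM against 4.47, 5.59, 7.12 and 3.97 CPM (1.14, SE 0.78). Its log2 fold change was the highest of the list and was not called. Rat 10 was below and rats 3 and 11 were above every CNT-T rat.

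Ifitm3, a membrane protein that hinders the fusion of viruses with endosomes, was the member whose groups did not overlap. It had 3.38, 2.45, 0.831 and 12.4 CPM after CNT-7 and 18.4, 24.1, 25.2 and 12.6 CPM after CNT-T. The log2 fold change was -2.08 (SE 0.63), and Ifitm3 was called lower. The gap was narrow between CNT-7 rat 11 and CNT-T rat 13, and within CNT-7 the span was 14.9-fold in the order of the other members. Reads of Ifitm3 may be shared with the similar Ifitm1 and Ifitm2, which were not called. Of the other effectors, Ifit3 (0.44), Cmpk2 (0.24), Bst2 (tetherin, 0.15), Ifit2 (-0.16) and Mx2 (-0.43) were not called. Mx1 and Mx2 also share sequence.

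**Figure D3:**
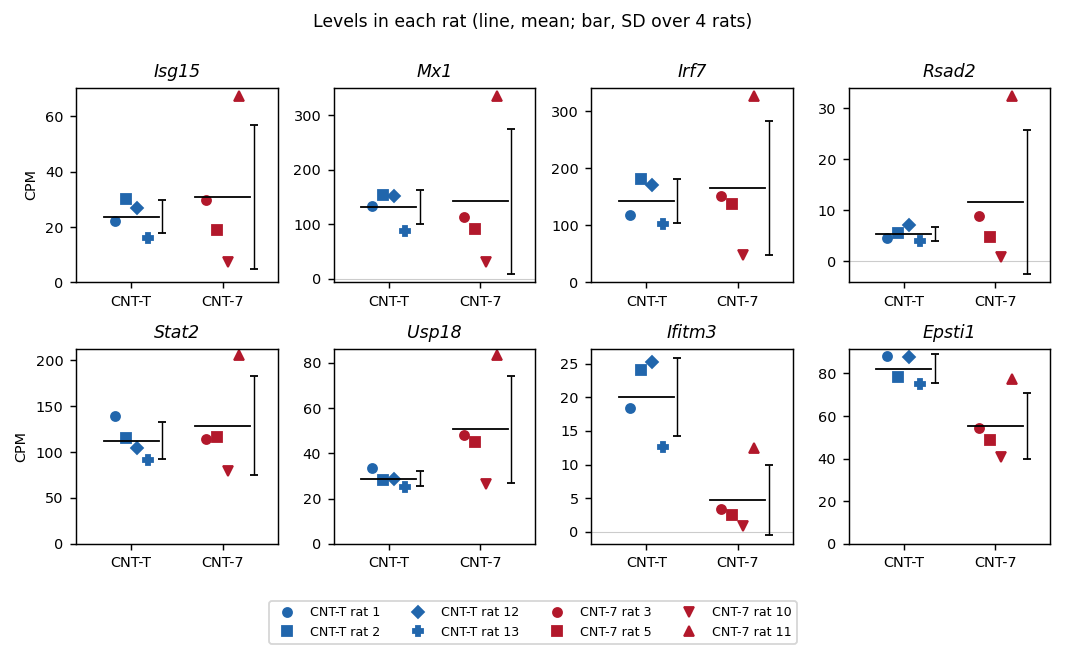
CPM of 8 interferon-stimulated genes in each rat, with symbols by rat, a line at the group mean and a bar of 1 SD over 4 rats, which reaches below 0 for Rsad2 and Ifitm3 after CNT-7. The upright triangle (CNT-7 rat 11) is at the top and the inverted one (CNT-7 rat 10) at the bottom of the CNT-7 group in every panel, and the groups separate only for Ifitm3.

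The interferon-inducible GTPases act on the vacuoles of intracellular microbes, and the 4 members were not called. Irgm had 72.9, 59.1, 32.3 and 128 CPM after CNT-7 and 69.4, 68.9, 66.7 and 46.7 CPM after CNT-T (log2 change 0.21, SE 0.34). Igtp had 82.5, 70.8, 51.1 and 162 CPM against 114, 105, 110.1 and 88.8 CPM (-0.19, SE 0.30). Both kept the order of the CNT-7 rats, but rats 3 and 5 were below every CNT-T rat for Igtp and not for Irgm. Gbp2 (0.01) and Gbp5 (-0.17) were not called.

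Among the remaining 9 genes, Epsti1, which takes part in macrophage activation, was called lower. Epsti1 had 54.6, 48.6, 40.9 and 77.2 CPM after CNT-7 and 88.2, 78.2, 87.9 and 74.9 CPM after CNT-T (log2 change -0.57, SE 0.17). CNT-7 rat 11 lay between CNT-T rats 13 and 2, and the other 3 CNT-7 rats were below all CNT-T rats. Rtp4, which binds nucleic acids and traffics receptors, had 78.0, 67.6, 27.2 and 137 CPM against 61.9, 58.6, 63.7 and 39.6 CPM (0.47, SE 0.39) and was not called. Neither were Xaf1, Ifi44, Ifi44l, Lgals3bp, Ifi27, Helz2 and Tor3a, whose log2 fold changes lay between -0.29 (Ifi27) and 0.12 (Tor3a).

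Between the particles, 5 of the 49 genes were therefore called (10.2%), whereas 27.9% of all 12124 genes were. Usp18, Herc6 and Parp9 were called higher (6.12%, against 13.9% of all genes) and Ifitm3 and Epsti1 lower (4.08%, against 14.0%). A called change of at least 2-fold was found for Ifitm3 alone (2.04%, against 8.30%), which was also the gene whose groups did not overlap (2.04%, against 24.9%). DESeq2 called the same 5 genes, and in edgeR's test they were also the only members at an unadjusted p under 0.05. The list was chosen with these calls known, and nothing is read from the comparison of these percentages. The median log2 fold change was 0.08 over the 49 genes and 0.01 over all genes tested, with 34 genes above and 15 below 0. The median SE was 0.26 for the 49 genes and 0.12 for all genes, so that an equal change was measured less precisely here.

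**Figure D4:**
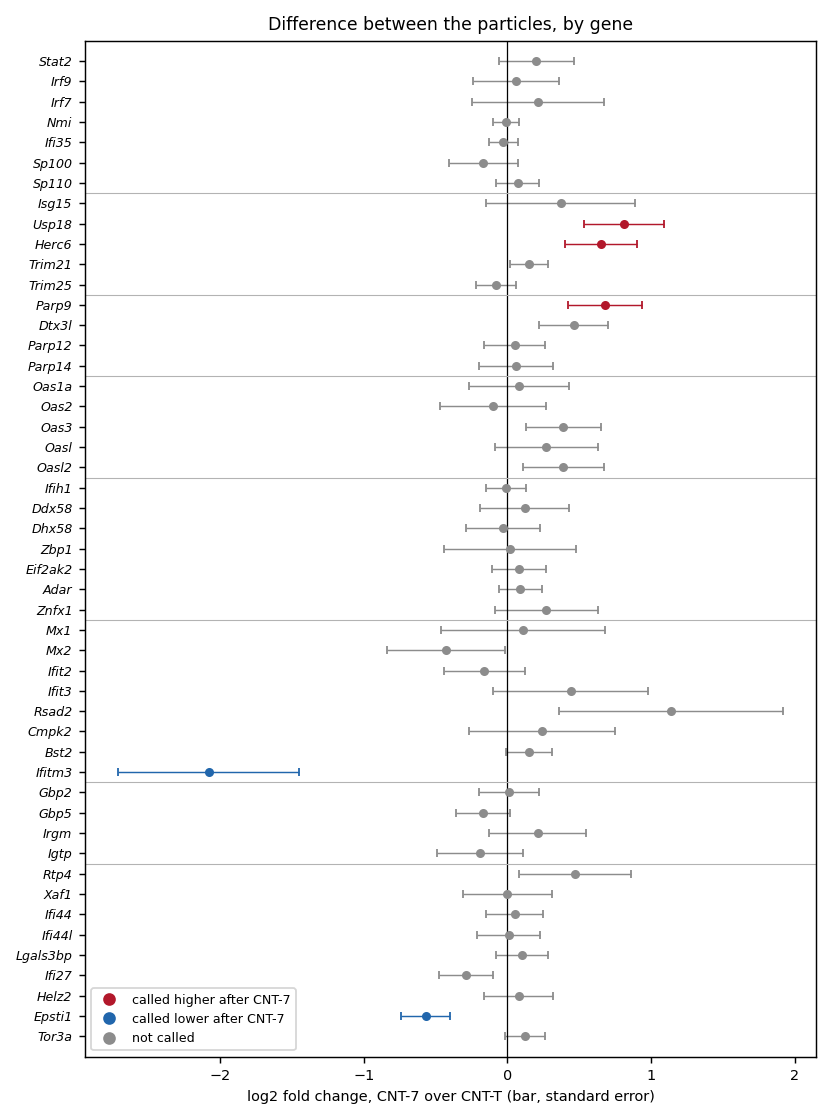
Log2 fold change between CNT-7 and CNT-T (positive where higher after CNT-7) for the 49 interferon-stimulated genes by role, with bars of 1 SE from edgeR's fit of 4 rats against 4. The 3 genes called higher (Usp18, Herc6, Parp9) and the 2 called lower (Ifitm3, Epsti1) are coloured, and the points run from -2.08 to 1.14.

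The calls depended on single rats. Without CNT-7 rat 11, edgeR called 0 members higher (1 at an unadjusted p under 0.05) and 6 lower (Dhx58, Epsti1, Ifit2, Ifitm3, Igtp and Mx2), and the median log2 fold change was -0.22. Without CNT-7 rat 10, 7 were called higher (Usp18, Herc6 and Parp9, with Dtx3l, Rsad2, Rtp4 and Trim21) and 2 lower, with a median of 0.23. The log2 fold change of Ifitm3 was -3.17 without rat 11 and -1.73 without rat 10, and that of Usp18 was 0.47 and 1.03. Herc6 and Parp9 were called only in the fit without CNT-7 rat 10 when rats were left out in turn, and Usp18 only without that rat or without CNT-T rat 1. Their log2 fold changes were 0.38, 0.38 and 0.47 without CNT-7 rat 11, and at least 0.58, 0.58 and 0.75 without any other rat. Ifitm3 lost its call without CNT-7 rat 3, CNT-7 rat 5 or CNT-T rat 12, although its log2 fold change was still -1.95, -1.86 and -1.95. Epsti1 lost its call without CNT-7 rat 5 or CNT-T rat 12, at log2 fold changes of -0.52 and -0.54. Of all genes tested, between 21.0% (without CNT-T rat 12) and 28.7% (without CNT-7 rat 11) were called in the fits without a single rat. Among rats numbered 1 to 5 alone, 3 members were called higher and 6 lower, beside 16.4% called of all genes tested. Among rats numbered 10 to 13 alone, 0 members were called in either direction by edgeR (0 at an unadjusted p under 0.05). Only 3.88% of all genes tested were called there. Both of these fits had 2 rats a group.

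The summed markers of other cells were not the highest in CNT-7 rat 11 in any of 6 lists. Summed over 6 markers of plasmacytoid dendritic cells, cells known as strong producers of type I interferon, the level was 0.657, 2.18, 0.831 and 0.796 CPM after CNT-7 and 0.429 to 0.621 CPM in the CNT-T rats (p = 0.0286, two-sided exact permutation test). Much of this sum was Runx2, whose groups overlapped and which was not called. The other 5 markers had at most 23 counts in any rat, 2 of them (Ptcra and Cox6a2) at most 3, and summed to 0.217 to 1.44 CPM in the CNT-7 rats and 0.0659 to 0.177 CPM in the CNT-T rats. The highest sum was in CNT-7 rat 5 and not in rat 11, and the same rat had the highest sums of 6 T cell markers (9.68 CPM, against 3.0 CPM in rat 11) and 4 B cell markers (2.78 CPM, against 0.181 CPM). The sum of 5 NK cell markers ran from 3.04 to 4.56 CPM in the CNT-7 rats and from 2.09 to 4.94 CPM in the CNT-T rats, with Gzmb at 0 in every rat. Neutrophil markers summed to 33.2 to 62.3 CPM and 24.9 to 67.5 CPM, and most of this was Csf3r, which was not called. S100a8 was called lower after CNT-7 (log2 fold change -1.46, SE 0.35), and its groups did not overlap. S100a9 (1.23, SE 0.90) and Cxcr2 (1.26, SE 0.63) went the other way and were not called, and Mmp8 and Camp did not pass the filter. Mesothelial markers summed to at most 0.302 CPM, with Wt1 and Upk3b at 0. The macrophage markers did show the order of the interferon-stimulated genes within CNT-7, apart from Lyz2. Of the other 8, 8 were the highest in rat 11 and 7 the lowest in rat 10, and their sum was 4658, 4076, 3489.8 and 5376 CPM after CNT-7 and 5398 to 7357 CPM in the CNT-T rats. C1qa and C1qb had 726 and 585 CPM in rat 10 and 1499.9 and 1158 CPM in rat 11. Lyz2 makes up most of the sum of all 9 and was the lowest in rat 11 (12197 CPM, against 19171 CPM in rat 10), so that with it the sum was the lowest in rat 11 (17572 CPM, against 22660.4 CPM in rat 10). The part of these sums in the levels of the interferon-stimulated genes was not tested.

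Other genes of the pathway were taken from lists of 93 symbols, of which 82 were in the table and 67 passed the filter on low counts. Of these, 14 were called higher after CNT-7 and 3 lower, beside 27.9% called of all genes tested. Of the interferons themselves, none of 11 interferon genes passed the filter, and none had more than 3 counts in any rat (3 counts being at most 0.109 CPM), so that their expression was not detectable at this depth.

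The genes of the type I interferon receptor were not called. Ifnar1 had 237, 252, 257 and 249.6 CPM after CNT-7 and 227, 227, 257 and 269.9 CPM after CNT-T, with a log2 fold change of 0.02 (SE 0.08, edgeR adjusted p = 0.88). For Ifnar2 it was -0.01 (SE 0.11, edgeR adjusted p = 0.98). The spans of both receptor genes within a group were at most 1.41-fold, and rat 11 was not the highest CNT-7 rat in either. Of the interferon-gamma receptor, Ifngr1 was not called (-0.08, SE 0.12, edgeR adjusted p = 0.70) and Ifngr2 was higher (0.31, SE 0.08, edgeR adjusted p = 0.019). Jak2, a kinase of that receptor, had 138, 126, 119 and 108 CPM after CNT-7 and 89.7, 75.6, 83.1 and 77.4 CPM after CNT-T (0.59, SE 0.09, edgeR adjusted p = 0.0024), with no overlap and the lowest CNT-7 value in rat 11. The kinases Jak1 (-0.01, SE 0.06, edgeR adjusted p = 0.9) and Tyk2 (-0.05, SE 0.12, edgeR adjusted p = 0.8) were not called. Il10rb, a shared subunit of the receptors of interferon-lambda and interleukin-10, was also higher (0.44, SE 0.10, edgeR adjusted p = 0.014).

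Of 13 genes of sensing and induction, 3 were higher and 1 lower, beside 13.9% higher and 14.0% lower of all genes tested. Tmem173 encodes STING, the adaptor that answers cytosolic DNA. It had 45.1, 35.6, 32.6 and 37.3 CPM after CNT-7 and 16.4, 18.5, 15.2 and 10.5 CPM after CNT-T (log2 change 1.31, SE 0.17, edgeR adjusted p = 0.00097). The groups were well apart, and rat 11 lay within the other CNT-7 rats. Cgas, the DNA sensor upstream of STING, went the other way (-0.62, SE 0.22, edgeR adjusted p = 0.075). That call was lost when any rat other than CNT-7 rat 11 was left out, with log2 fold changes between -0.66 and -0.45. Myd88, the adaptor of most Toll-like receptors, was higher (0.39, SE 0.08, edgeR adjusted p = 0.0092), as was Tlr8.

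Of 8 genes listed under restraint of the pathway, 3 were higher and 0 lower, beside 13.9% higher and 14.0% lower of all genes tested. Socs3, an inhibitor of cytokine receptor signalling, had 21.7, 34.8, 42.0 and 19.8 CPM after CNT-7 and 5.41, 3.61, 1.62 and 4.15 CPM after CNT-T (log2 change 3.0, SE 0.36, edgeR adjusted p = 0.00073). Socs1, which blocks the interferon receptors' kinases, had 2.14, 2.71, 3.94 and 4.02 CPM against 0.913, 0.650, 0.297 and 0.465 CPM (2.45, SE 0.36, edgeR adjusted p = 0.0018). Neither gene followed the order of the interferon-stimulated genes, as rat 10 was the highest CNT-7 rat for Socs3 and the second highest for Socs1. Samhd1, which degrades nucleotides, had 96.8, 93.6, 80.3 and 177 CPM against 48.1, 52.2, 55.4 and 39.8 CPM (1.20, SE 0.23, edgeR adjusted p = 0.0066). It was both higher after CNT-7 and ordered like the list within CNT-7. The other 5 of the 8 genes of this list were not called, among them Isg20, which is not itself a gene of restraint.

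**Figure D5:**
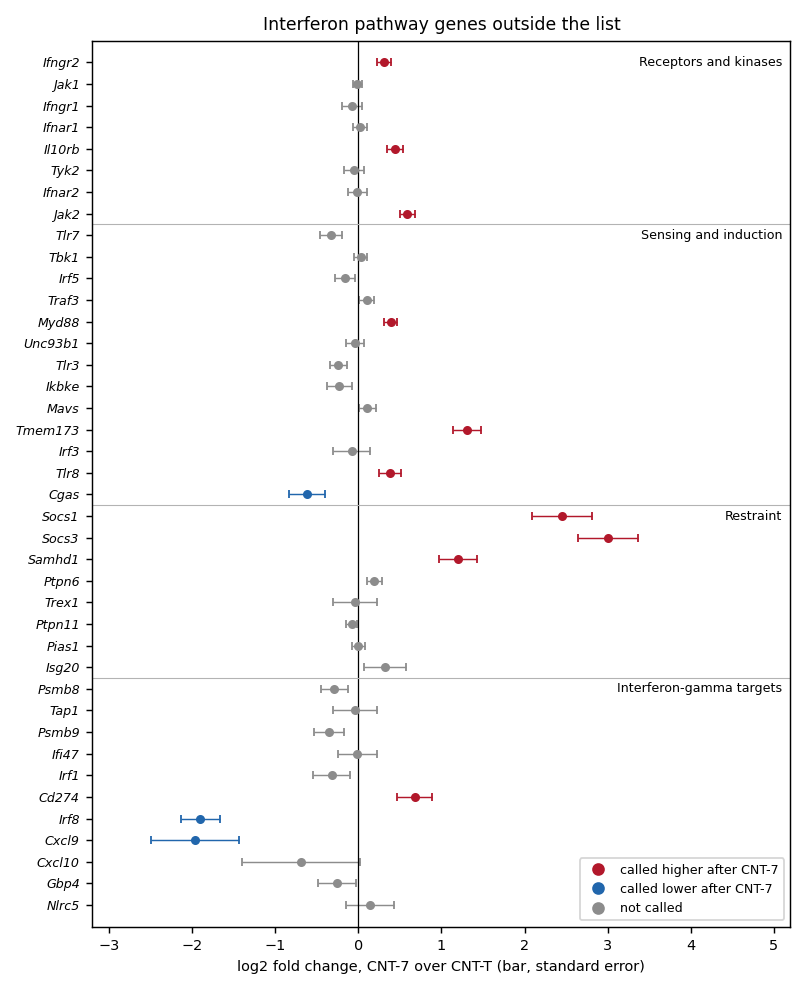
Log2 fold change between CNT-7 and CNT-T (positive where higher after CNT-7) for 40 other pathway genes in 4 lists (receptors and kinases, sensing and induction, restraint, and interferon-gamma targets), with bars of 1 SE, and with called genes coloured. Socs3 (3.0) and Socs1 (2.45) are the highest, Cxcl9 (-1.96) and Irf8 (-1.90) the lowest, and the type I receptor genes lie at 0.

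The interferon-gamma targets were called in both directions, with 1 higher and 2 lower among 11. Of all genes tested, 13.9% were higher and 14.0% lower. Irf8, a transcription factor of the macrophage lineage, had 20.9, 23.4, 17.5 and 35.4 CPM after CNT-7 and 123, 80.1, 75.5 and 85.2 CPM after CNT-T (log2 change -1.90, SE 0.23, edgeR adjusted p = 0.00072). Cxcl9, a chemokine for T cells, had 6.31, 2.61, 2.49 and 10.4 CPM against 31.6, 23.6, 22.5 and 7.02 CPM (-1.96, SE 0.53, edgeR adjusted p = 0.028). The groups did not overlap for Irf8, while for Cxcl9 CNT-T rat 13 was below CNT-7 rat 11. Cd274, which encodes PD-L1, was higher (0.68, SE 0.21, edgeR adjusted p = 0.046). Its call was lost without CNT-T rat 1 (0.58) or CNT-T rat 2 (0.63). In 10 of the 11 genes rat 11 was the highest and rat 10 the lowest CNT-7 rat, against 13.3% of all genes tested.

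Of 26 other interferon-stimulated genes outside the list, 4 were higher and 0 lower in CNT-7 (edgeR, with 1 lower at an unadjusted p under 0.05 and 1 called lower by DESeq2). Over all genes tested, edgeR called 13.9% higher and 14.0% lower. The order of rats 11 and 10 was found in 13 of the 26, against 13.3% of all genes tested. Trim14, an adaptor of antiviral signalling, had 8.44, 3.58, 1.95 and 5.68 CPM after CNT-7 and 0.587, 0.857, 0.527 and 0.859 CPM after CNT-T (log2 change 2.79, SE 0.44, edgeR adjusted p = 0.0025). Ifit1bl, a relative of Ifit1, had 63.8, 62.4, 28.0 and 85.4 CPM against 31.0, 16.8, 33.8 and 27.9 CPM (1.13, SE 0.32, edgeR adjusted p = 0.031), and Slfn2, a growth regulator of immune cells, was higher by 0.73 (SE 0.12, edgeR adjusted p = 0.0026). Trim14 and Slfn2 separated the groups in every rat, whereas Ifit1bl did not, since rat 10 lay below CNT-T rats 1 and 12. Ifit1 was the other gene called, at no more than 1.41 CPM in any rat, and its reads may be shared with Ifit1bl.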

How the data were processed

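RNA of sorted peritoneal macrophages was analysed for 4 rats given CNT-7 and 4 given CNT-T, grouped by their labels. The authors quantified the reads with Salmon (version not given in the sources used here) on the Ensembl rat cDNA of Rnor_6.0, imported them with tximeta in the ARMOR workflow, and deposited estimated counts per gene, already whole numbers and not normalized. Such counts divide reads between similar genes, which is stated beside the genes concerned. Library totals and the level of 3 counts are given with the results, and cover counting error only.

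All genes were fitted with the quasi-likelihood test of edgeR 4.0.16 (R 4.3.3), with TMM normalization, filterByExpr at its defaults (minimum count 10, minimum total 15) and Benjamini-Hochberg adjustment over 12124 genes, called under 0.10 as in the study. SE is the log2 fold change over the square root of F. Log2 CPM of the score had 2 counts added as prior. The scripts were tested on simulated counts. The members, role groups and pathway lists were chosen with earlier results of these data known. Values in every rat are given for Stat2, Irf9, Irf7, Usp18, Isg15 and Mx1, for the 2 members of each role group with the largest absolute log2 fold change, and for receptor subunits and up to 3 called genes of each pathway list. The macrophage and neutrophil markers with values were named after their values were seen. An item of the pathway lists is counted but not reported here.

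Alternatives were DESeq2 1.42.0, other normalizations, filters, thresholds and score settings, each rat left out, and a block for the range of rat numbers. Subsets by rat number and correlations and spreads without rats 10 and 11, and marker sums without Lyz2 or Runx2, were added after seeing the data. Promoter windows came from RefSeq (GRCr8), and 10 members without a matched window were not searched (Mx2, Ifit2, Isg15, Oas2, Usp18, Ddx58, Dhx58, Rtp4, Zbp1 and Adar).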

Additional observations from a re-analysis of the deposited data

Results flagged for a closer look

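Of 76 groups of 4 rats examined for a rat that stood apart by Dixon's test, 3 passed, where chance gives about 1 in 20, that is 3.80. CNT-T rat 13 had 33.5 CPM of Oas3, while the other CNT-T rats had 49.9 to 52.5 CPM, a gap of 0.865 of the group's range. The same rat had 46.7 CPM of Irgm, against 66.7 to 69.4 CPM (0.880). CNT-7 rat 11 had 177 CPM of Samhd1, while rats 3, 5 and 10 had 80.3 to 96.8 CPM (0.830).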

How the results depend on the processing

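The number of interferon-stimulated genes called higher and lower was 3 and 2 with edgeR, and the same 5 genes were called with DESeq2, without the filter, with at least 10 counts in every rat and with upper-quartile normalization. It was 1 and 2 with library totals alone and with the range of rat numbers as a block, 0 and 2 at an adjusted p under 0.05, and 0 and 1 with at least a 2-fold change. With each rat left out in turn, 0 to 7 were called higher and 0 to 6 lower, and the median log2 fold change lay between -0.22 and 0.23. Rats numbered 1 to 5 gave 3 and 6 (16.4% called of all genes), and rats numbered 10 to 13 gave 0 and 0 (3.88%). Of the other pathway genes, 14 were called higher and 3 lower. The lower count was 5 with DESeq2 and with the block, 12 without CNT-7 rat 11, 9 in rats numbered 1 to 5, and 0 (with 3 higher) in rats numbered 10 to 13, and 6 were higher with at least a 2-fold change. With each rat left out, the log2 fold change of Ifnar1 lay between -0.01 (without CNT-T rat 1 or 2) and 0.07, and was -0.07 in rats numbered 10 to 13. That of Ifnar2 lay between -0.07 and 0.10, above 0 without CNT-7 rat 3 (0.04), CNT-7 rat 11 (0.00) or CNT-T rat 13 (0.10), and was 0.08 in rats numbered 1 to 5, and that of Ifngr1 was -0.18 without CNT-7 rat 10 and 0.01 without CNT-7 rat 11. The SD of the score over CNT-T rats was 0.18, and lay between 0.04 without CNT-T rat 13 and 0.21 without CNT-T rat 1. The 45 genes with rat 11 highest and rat 10 lowest among CNT-7 rats were 45 to 46 under other scalings. Fits of 2 rats against 2 and without a rat have fewer samples, and the cause was otherwise not tested. No paired analysis was possible because the groups share no rat numbers. The numbers are not stated to mark batches. Whether batches differed was not tested.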

Other observations

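Among genes outside the list with a mean of at least 10 CPM, those that followed the mean of the interferon-stimulated genes most closely over the 8 rats, with group means removed, were chosen after their values were seen. Of the first 25, 7 were in the pathway lists, among them Mov10, Apol9a, Uba7, Cxcl10, Trafd1 and Ifi47. The MHC class I genes RT1-S3, RT1-T24-4, RT1-N3, RT1-CE7 and RT1-T24-3 followed with r between 0.97 and 0.99 over the same 8 libraries, and their reads may be divided between similar genes. RT1-S3 had 244, 202, 109 and 385 CPM in CNT-7 rats 3, 5, 10 and 11 and 269, 271, 277 and 189 CPM in CNT-T rats 1, 2, 12 and 13. Klrk1, which encodes the receptor NKG2D, had 16.2, 8.38, 3.72 and 40.0 CPM against 25, 24.7, 29.1 and 21.5 CPM (r = 0.97), a 10.8-fold span after CNT-7.

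Dnmt1 and Mki67, also chosen after their values were seen, showed the same order within CNT-7, at lower levels than in CNT-T. Dnmt1, the maintenance DNA methyltransferase, had 79.2, 66.9, 47.8 and 106 CPM after CNT-7 and 146, 163, 162 and 144 CPM after CNT-T (r = 0.98). Mki67, a marker of dividing cells, had 129.9, 92.1, 79.7 and 191 CPM against 385, 363, 381 and 402 CPM. In both genes the groups did not overlap, as in 24.9% of all genes tested. Trip13 and Tubg1 also showed this order (r = 0.97 for each), with log2 fold changes of -1.04 and -0.39. How many other genes of cell division show this order was not tested.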
